A study of Mus musculus with 12 samples.

Results

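The solute carriers are the genes whose annotated symbol begins with Slc and a family number, in burnt mouse skin. Members were taken by that symbol, from probe sets that named 1 gene only, whatever their values. This gave 86 genes on 94 probe sets, of 5599 genes named by the table. Total RNA of mouse skin had been hybridised to Affymetrix arrays, 1 array per sample and 12 in all. Each time point after the thermal injury (0 hours, 2 hours, 3 days, 14 days) had 3 replicates. The labels give no strain, sex, age, depth of burn or body site. They leave unsaid if skin at 0 hours had been burnt, and if replicates are different animals. Without that, p-values reflect the variation among these arrays, part of which could be technical.

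Solute carriers are membrane proteins that move small molecules and ions without splitting ATP themselves, either down a gradient or coupled to the gradient of another ion. Those of the plasma membrane feed cells with glucose, amino acids, phosphate and metals. Those of family 25 exchange metabolites across the inner mitochondrial membrane. In skin, keratinocytes, fibroblasts, fat cells, underlying muscle and incoming leukocytes each use their own set. The members were grouped by substrate into 6 genes for glucose and other sugars, 11 for amino acids, 27 for ions, 14 mitochondrial carriers and 28 for other solutes. Slc9a3r1 and Slc4a1ap carry the name but are adaptor proteins that bind transporters, and stand with the ions here by their symbols. Slc25a17 was counted with the mitochondrial carriers by its family, although its protein sits in peroxisomes.

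Signal values are linear intensities, and values under 225.375, the pooled 25th percentile, were taken as a floor before log2 transformation. Of the 86 genes, 61 were brighter than the pooled median of 475.55 on at least 3 arrays and were tested, and 25 were not. The tested genes were 5 for sugars, 8 for amino acids, 18 for ions, 12 mitochondrial carriers and 18 for other solutes. Log2 changes are given with the standard error of the limma fit over all 12 arrays, 3 per time point. Calls were made where p, adjusted by Benjamini-Hochberg over all 3477 genes tested, was under 0.05. Where the lower group had an array at the floor, the size of a change is a minimum. The 3 comparisons with 0 hours share the 0 hours arrays. Precision is limited by having 3 arrays a group. Of the 61 tested genes 5 passed the brightness filter on exactly 3 arrays, so leaving out 1 of those arrays removed the gene from the test. For Slc39a6 and Slc39a8 the 3 arrays were those of 14 days, the time at which they were high, so passing the filter already tied them to that time. For Slc20a1 they were 3 days replicates 1 and 3 and 14 days replicate 1. The others were Slc11a2 and Slc23a2, neither of them called.

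Array medians lay between 447.85 and 495.05. Keratinocyte markers were found in all groups, with none of the 7 measured at the floor on all arrays of a time point. Skeletal muscle markers were found too, with 12 of 12 measured. Their summed signal was 261755 to 412094 on 0 hours arrays and 223209 to 259354 on 2 hours arrays, then 83882.9 to 193299 on those of 3 days and 121689 to 166848 on those of 14 days. The log2 ratio of the 3′ to the 5′ Gapdh control probe set, which is higher where RNA is less intact, was highest at 0 hours and went down with time. The 0 hours arrays had 1.99 ± 0.29 (SD, n = 3) and the 2 hours arrays 1.54 ± 0.46. The 3 days arrays had 0.52 ± 0.50 and the 14 days arrays 0.21 ± 0.08. Its part in the results that follow was not tested. Markers of wound keratinocytes, such as Krt6a and Krt16, were higher at the late times. Their summed signal over 6 of 6 markers was 18888.7 to 26557.6 on 0 hours arrays and 34949.1 to 41238.5 on 2 hours arrays. It was 113773 to 125171 on those of 3 days and 53431.5 to 189874 on those of 14 days, and none of the 6 was at the floor on all arrays of a time point. All 6 were called higher at 3 days (median 2.66) and at 14 days (median 2.44), against 8.89% and 6.90% of all genes tested. These were the times at which Slc2a1, Slc20a1, Slc7a5 and Slc9a3r1 were called higher. The part of wound keratinocytes in those rises was not tested. In such bulk samples, fewer cells of a type and less RNA per cell cannot be told apart.

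Solute carriers changed with time about as often as the other genes on these arrays. Of the 61 tested, 12 (19.7%) were called over the 4 time points by the limma F-test, against 21.2% of all genes tested. At 2 hours 2 rose and 1 fell, or 4.92%, against 5.67% of all genes called (4.0% higher, 1.67% lower). At 3 days 6 rose and 2 fell, or 13.1%, against 13.3% (8.89% higher, 4.40% lower). At 14 days 6 rose and 1 fell, or 11.5%, against 10.2% (6.90% higher, 3.25% lower). From 2 hours to 3 days 2 rose and 3 fell, or 8.20%, against 9.40% (6.10% higher, 3.31% lower). From 3 to 14 days 1 rose and none fell, or 1.64%, against 3.39% (1.29% higher, 2.1% lower). These shares lie near the background of each comparison, so the counts by themselves do not set the family apart.

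The median log2 change of the 61 genes was 0.06 at 2 hours, −0.09 at 3 days and 0.11 at 14 days, against 0.05, 0.02 and 0.05 over all genes tested. The arrays of the compared time points did not overlap for 14 members at 2 hours, 13 at 3 days and 16 at 14 days. Over all genes tested 23.4%, 28.6% and 29.1% did not overlap. The members varied more within 0 hours, with a median SD of 0.29 on the log2 scale, than within 2 hours (0.19), 3 days (0.23) or 14 days (0.20). Over all genes these medians were 0.32, 0.20, 0.22 and 0.20. Leaving out 1 array moved the count of members called by over 1.5 times in several cases. The share of all genes called in each such fit is not given here, so these moves cannot be read as particular to the members. Over the 4 time points the count fell to 7 without 3 days replicate 3, 14 days replicate 1 or 14 days replicate 2. At 2 hours it was 5 without 0 hours replicate 2. At 3 days it was 2 without 3 days replicate 3. At 14 days it was 2 without 0 hours replicate 1, 0 without 14 days replicate 1, 1 without 14 days replicate 2 and 2 without 14 days replicate 3. From 2 hours to 3 days it was 1 without any 1 of the 2 hours arrays or 3 days replicate 2, 0 without 3 days replicate 3, and 3 without 14 days replicate 2 or 3. Without 14 days replicate 1, limma's unadjusted p was under 0.05 for 8 members, and without 3 days replicate 3 for 9 in the comparison of 3 days with 2 hours.

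**Figure D1:**
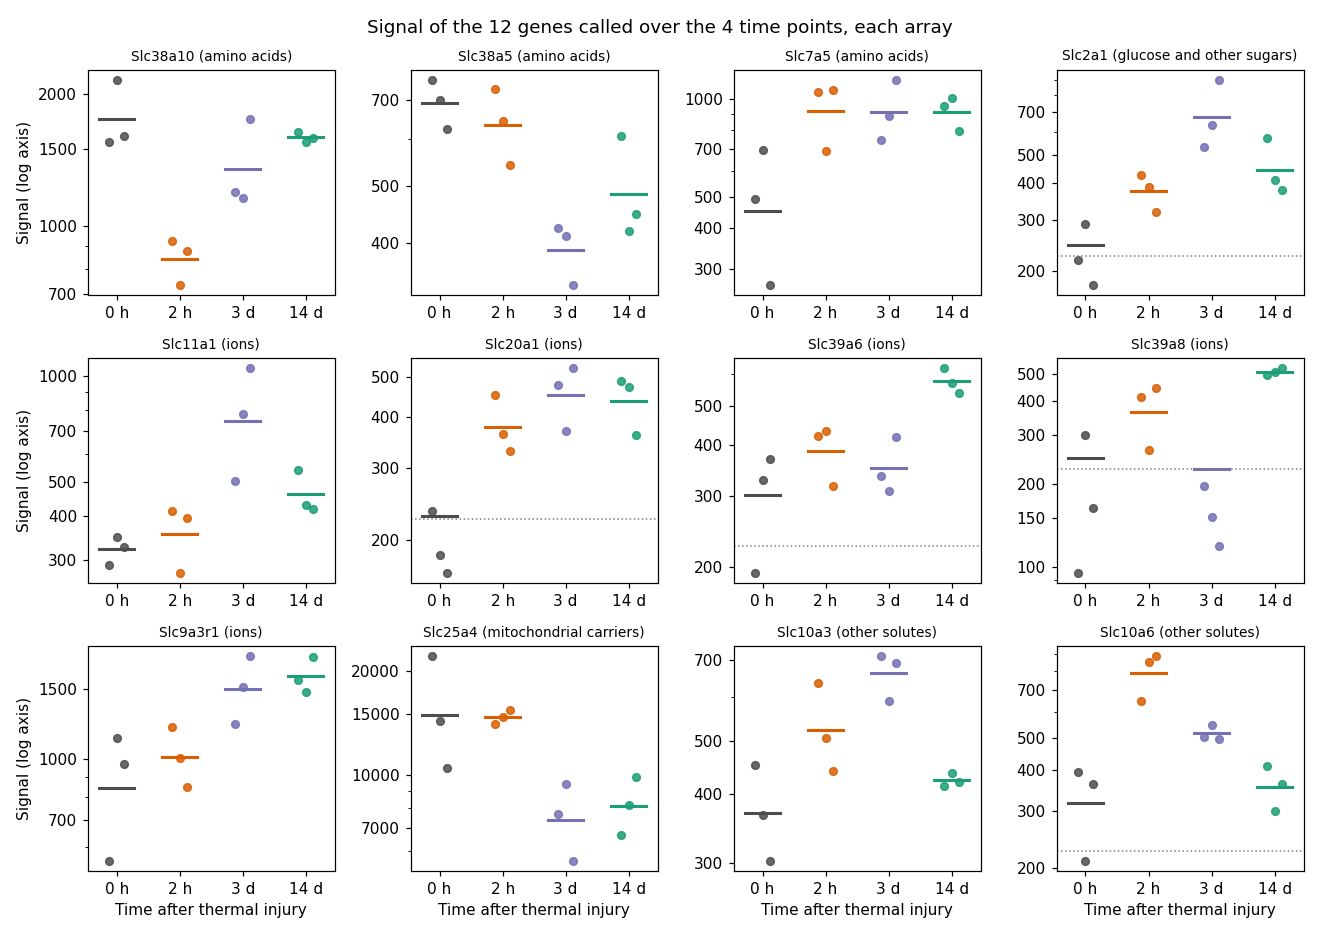
Signal of the 12 genes called over the 4 time points, on a log axis in signal units, for each array at 0 hours, 2 hours, 3 days and 14 days. Points are arrays, bars the mean of the floored log2 values of 3 arrays, and the dotted line, where drawn, the floor of 225.375. Slc10a6 and Slc38a10 stand apart at 2 hours, and Slc2a1 and Slc11a1 are highest at 3 days.

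Among the sugar transporters the facilitative glucose transporter Slc2a1 (GLUT1), which supplies basal glucose to most proliferating cells, was higher after injury. Its signal was 218.5, 290.8 and 180 at 0 hours, 425.8, 387.9 and 318.8 at 2 hours, 532.2, 632.4 and 900.4 at 3 days, and 571, 408.8 and 377.6 at 14 days. Every later array lay above every 0 hours array, and 3 days replicate 3 was the highest. The change was 0.61 ± 0.23 at 2 hours (limma adjusted p = 0.14), at least 1.45 ± 0.23 at 3 days (limma adjusted p = 0.00095) and at least 0.86 ± 0.23 at 14 days (limma adjusted p = 0.031). At 3 days this was at least 2.74-fold, with 2 of the 3 arrays at 0 hours at the floor. The rise from 2 hours to 3 days, 0.84 ± 0.23, was also called (limma adjusted p = 0.036), and the change of −0.59 ± 0.23 from 3 to 14 days was not (limma adjusted p = 0.27).

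The rise of Slc2a1 at 3 days held without any single array, with limma adjusted p up to 0.0070. The call at 14 days was lost without 0 hours replicate 1 (0.095), 0 hours replicate 3 (0.068), 14 days replicate 1 (0.14) or 14 days replicate 2 (0.065), with no filter (0.076) and with the floor at the 40th percentile (log2 change 0.30, 0.38). The call from 2 hours to 3 days was lost without 2 hours replicate 1 (0.053), replicate 2 (0.089) or replicate 3 (0.15), without 3 days replicate 2 (0.089) or replicate 3 (0.19), without 14 days replicate 2 (0.051), with no filter (0.086) and with the floor at the 10th percentile (0.051), all limma adjusted p.

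The other tested sugar transporters were not called at any time with all arrays. Slc2a4 (GLUT4), the insulin-responsive transporter of muscle and fat, had signals of 1778.8, 826.7 and 699.1 at 0 hours, 996.5, 840.5 and 874.5 at 2 hours, 901.2, 730.5 and 420.6 at 3 days, and 459.2, 615.2 and 871.2 at 14 days. Its groups overlapped throughout, and its log2 changes were −0.16 ± 0.35, −0.63 ± 0.35 and −0.69 ± 0.35 (limma adjusted p = 0.83, 0.24 and 0.21). The array with its highest signal, 0 hours replicate 1, also had the highest sum of muscle markers, and the array with its lowest, 3 days replicate 3, the lowest sum. Of 8 adipocyte markers 6 were measured, and Pparg was at the floor on all arrays of 3 and 14 days. Their sums on these 2 arrays were 33391.7, the highest of 0 hours, and 6774.8, the lowest of 3 days. The part of muscle or fat cells was not tested. Slc2a8 (GLUT8), found on membranes inside the cell, changed by −0.50 ± 0.22 at 2 hours (limma adjusted p = 0.19). Slc37a4, which moves glucose 6-phosphate into the endoplasmic reticulum, and Slc50a1, a sugar transporter of the SWEET family, had changes between −0.45 and 0.29 against 0 hours. Without 0 hours replicate 3, Slc37a4 was called lower at 3 days (−1.02, limma adjusted p = 0.028) and at 14 days (−1.01, 0.037), against −0.45 and −0.43 with all arrays. Slc2a3 (GLUT3) was too dim for the test and lay between 57.9 and 457.2, with 9 of 12 arrays at the floor and its highest value on 3 days replicate 3.

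Genes that use glucose after its entry were also examined. Of 26 such genes and their regulators listed, 18 were tested. At 2 hours 1 rose and none fell, at 3 days 2 rose and 5 fell, and at 14 days none rose and 5 fell. Of all genes tested 8.89% were called higher and 4.40% lower at 3 days, and 6.90% and 3.25% at 14 days. Medians were −0.20, −0.41 and −0.65. Pdk4, a kinase that shuts off pyruvate oxidation, rose at 2 hours (2.09 ± 0.34, limma adjusted p = 0.0027). At 3 days Pgam1, a phosphoglycerate mutase, rose by 1.04 ± 0.27 and Hif1a, the hypoxia-inducible factor, by 0.93 ± 0.26, from a probe set of a kind shared between similar sequences. The muscle enzymes Pgam2 and Eno3 fell by 1.46 ± 0.35 and 1.22 ± 0.32. At 14 days Ldha and Pgk1 fell by 0.92 ± 0.21 and 0.90 ± 0.21. Summed muscle markers were lower at both times, and their part in these values was not tested.

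The stretch before the gene start is shown for Slc2a1 and Slc20a1, members that rose at both 3 and 14 days, and for Slc25a4, which fell at both. The 250 bases 5′ of the RefSeq gene start (GRCm38.p6) are chr4:119108495-119108744 (+ strand), chr2:129198523-129198772 (+ strand) and chr8:46211063-46211312 (- strand). The table has another window for Slc20a1, not shown. The sequences are printed 5′ to 3′ on the gene's strand. Capitals mark ACGTG on either strand, the core of the site bound by hypoxia-inducible factors, which is also held within the E-box CACGTG.
Slc2a1: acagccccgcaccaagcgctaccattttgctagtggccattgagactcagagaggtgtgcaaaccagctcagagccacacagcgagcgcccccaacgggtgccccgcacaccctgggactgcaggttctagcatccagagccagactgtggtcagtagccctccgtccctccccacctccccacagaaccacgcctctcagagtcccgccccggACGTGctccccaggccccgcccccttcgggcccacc
Slc20a1: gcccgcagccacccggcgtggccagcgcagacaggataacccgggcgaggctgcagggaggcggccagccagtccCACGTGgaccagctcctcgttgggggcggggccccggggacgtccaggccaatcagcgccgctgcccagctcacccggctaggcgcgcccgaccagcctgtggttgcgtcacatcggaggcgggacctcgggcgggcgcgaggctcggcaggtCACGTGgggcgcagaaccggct
Slc25a4: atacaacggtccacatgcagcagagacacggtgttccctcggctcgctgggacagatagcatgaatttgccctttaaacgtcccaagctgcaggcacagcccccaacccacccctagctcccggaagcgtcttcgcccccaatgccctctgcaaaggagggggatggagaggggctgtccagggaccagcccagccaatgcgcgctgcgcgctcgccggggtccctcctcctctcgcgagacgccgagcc
Slc2a1 held 1 match, its first base 36 bases before the start. Slc20a1 held CACGTG at 175 and at 22 bases before the start, each read as ACGTG on both strands, and Slc25a4 held none. The other window of Slc20a1 held none. Other called members did not follow their direction of change. Slc38a5 and Slc38a10, which fell, held ACGTG, and Slc11a1 and Slc10a6, which rose, held none. Slc39a8, which rose, had a window with it and another without. Of all 32851 windows of this length 16.6% held ACGTG, as did 25.5% of the 98 windows of 70 members, and the median GC content was 52.4% and 60.4%. The windows of Slc2a1 and Slc20a1 were 66.4% and 75.2% GC. A gene can have several windows, which may overlap. A match is a description of letters and not a bound site.

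Amino acid transporters differed from 0 hours in both directions. Slc38a10, of the sodium-coupled neutral amino acid transporter family, fell at 2 hours. Its signal was 1552.1, 2147.4 and 1605.6 at 0 hours, 926.3, 736.6 and 880.5 at 2 hours, 1195.3, 1161.2 and 1754.6 at 3 days, and 1639.7, 1549.5 and 1586 at 14 days. The 2 hours arrays lay below all others. It fell by 1.05 ± 0.21 at 2 hours (limma adjusted p = 0.0088), and the call held without any single array. Fibroblast markers were also lower at 2 hours, with sums of 74904.4 to 84548.7 against 127577 to 146070 at 0 hours and 4 of 7 called lower. At 3 days their sums were 76254.9 to 93140.7 with 3 of 7 called lower, and at 14 days 92079.1 to 118528 with 1. Among all genes tested 1.67%, 4.40% and 3.25% were called lower at 2 hours, 3 days and 14 days. The part of fibroblasts in the level of Slc38a10 was not tested. None of the 7 was at the floor on all arrays of a time point. At 3 and 14 days Slc38a10 differed from 0 hours by −0.38 ± 0.21 and −0.14 ± 0.21 (limma adjusted p = 0.24 and 0.72). Its change from 2 hours to 3 days, 0.67 ± 0.21, was not called with all arrays (limma adjusted p = 0.054) and was called without any 1 of the 0 hours arrays (0.0498, 0.040 and 0.048), with quantile normalization (0.046), the floor at the 40th percentile (0.045) or the filter at the 75th (0.038).

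Slc7a5 (LAT1), the light chain of the exchanger that takes up large neutral amino acids such as leucine, rose at both later times. Its signal was 492.4, 697.1 and 268.1 at 0 hours, 1051.7, 689.2 and 1064.6 at 2 hours, 746.9, 883 and 1143.8 at 3 days, and 951.2, 1002.7 and 797 at 14 days. The arrays of 3 and 14 days lay above all of 0 hours, while 2 hours replicate 2 fell within their range. The changes were 1.02 ± 0.30 at 2 hours (limma adjusted p = 0.062), 1.01 ± 0.30 at 3 days (limma adjusted p = 0.039) and 1.02 ± 0.30 at 14 days (limma adjusted p = 0.045). Its heavy chain Slc3a2 (CD98), which brings the light chain to the membrane, had 1338.1, 1915.7 and 1776.1 at 0 hours, 2496.7, 2352.1 and 2872.8 at 2 hours, 1655.2, 2154.4 and 2905.9 at 3 days, and 1860.7, 2353.2 and 2141.7 at 14 days. Its 2 hours arrays lay above those of 0 hours, but the changes of 0.63 ± 0.22, 0.40 ± 0.22 and 0.35 ± 0.22 were not called (limma adjusted p = 0.11, 0.25 and 0.34).

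The calls of Slc7a5 were close to the threshold. That at 3 days was lost without 0 hours replicate 1 (0.066) or replicate 3 (0.12), 2 hours replicate 3 (0.052), 3 days replicate 2 (0.088) or replicate 3 (0.17), or 14 days replicate 2 (0.052), with no filter (0.12) and with only the 2 time points compared (0.11), all limma adjusted p. That at 14 days was lost without 0 hours replicate 1 (0.084) or replicate 3 (0.12), 2 hours replicate 1 (0.055) or replicate 3 (0.059), 3 days replicate 2 (0.061), or 14 days replicate 1 (0.13), replicate 2 (0.13) or replicate 3 (0.068). It was also lost with quantile normalization (0.056), median scaling (0.060), the floor at the 10th percentile (0.052), no filter (0.13) and only the 2 time points compared (0.086). At 2 hours it was called without 0 hours replicate 2 (1.34, limma adjusted p = 0.015) and with the filter at the 75th percentile (limma adjusted p = 0.049).

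Slc38a5 (SNAT5), a glutamine and histidine transporter coupled to sodium and protons, fell later. Its signal was 755.7, 698.9 and 623.2 at 0 hours, 728.6, 643.8 and 542.9 at 2 hours, 423.5, 410 and 339.6 at 3 days, and 606, 419.3 and 446.8 at 14 days. The 3 days arrays lay below all of 0 and 2 hours. It fell by 0.83 ± 0.20 from 0 hours to 3 days (limma adjusted p = 0.014) and by 0.70 ± 0.20 from 2 hours to 3 days (limma adjusted p = 0.038). The first call was lost without 3 days replicate 3 (0.079). The second was lost without 2 hours replicate 1 (0.13), replicate 2 (0.11) or replicate 3 (0.058), 3 days replicate 2 (0.092) or replicate 3 (0.18), or 14 days replicate 3 (0.05001), and with no filter (0.058), all limma adjusted p.

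Slc38a2 (SNAT2), a system A transporter that cells raise when amino acids are short, had 386.7, 1152.7 and 585.1 at 0 hours and 1231.6, 1443.8 and 1251.6 at 2 hours. All 2 hours arrays were higher, but 0 hours replicate 2 lay near them, and the change of 1.03 ± 0.30 was not called (limma adjusted p = 0.060). Without 0 hours replicate 2 it was 1.46 at 2 hours (limma adjusted p = 0.0033), 0.96 at 3 days (0.014) and 0.75 at 14 days (0.043). With all arrays the changes at 3 and 14 days were 0.53 ± 0.30 and 0.33 ± 0.30 (limma adjusted p = 0.25 and 0.52). The taurine transporter Slc6a6, the glutamine transporter Slc1a5 (ASCT2) and the system A transporter Slc38a4 were not called. Their changes at 2 hours were 0.51 ± 0.21, 0.54 ± 0.39 and −0.10 ± 0.26, and at 14 days 0.16 ± 0.21, −0.68 ± 0.39 and −0.37 ± 0.26.

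Over the 8 tested amino acid transporters the median change was 0.52 at 2 hours, 0.08 at 3 days and 0.01 at 14 days. At 2 hours 1 was called, a fall, and 5 had an unadjusted p under 0.05, among 22.3% of all genes with such a p. The untested Slc7a6, Slc7a8 and Slc6a20b had signals of 97.3 to 325.7, 30.7 to 250.9 and 152.4 to 338.9. Of 22 genes of the amino acid response listed, which cells switch on when amino acids run low, 12 were tested and none was called in any comparison or over the 4 time points. Their medians were 0.14 at 2 hours, 0.28 at 3 days and 0.29 at 14 days. At an unadjusted p under 0.05 limma had 2, 4 and 3 of them.

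**Figure D2:**
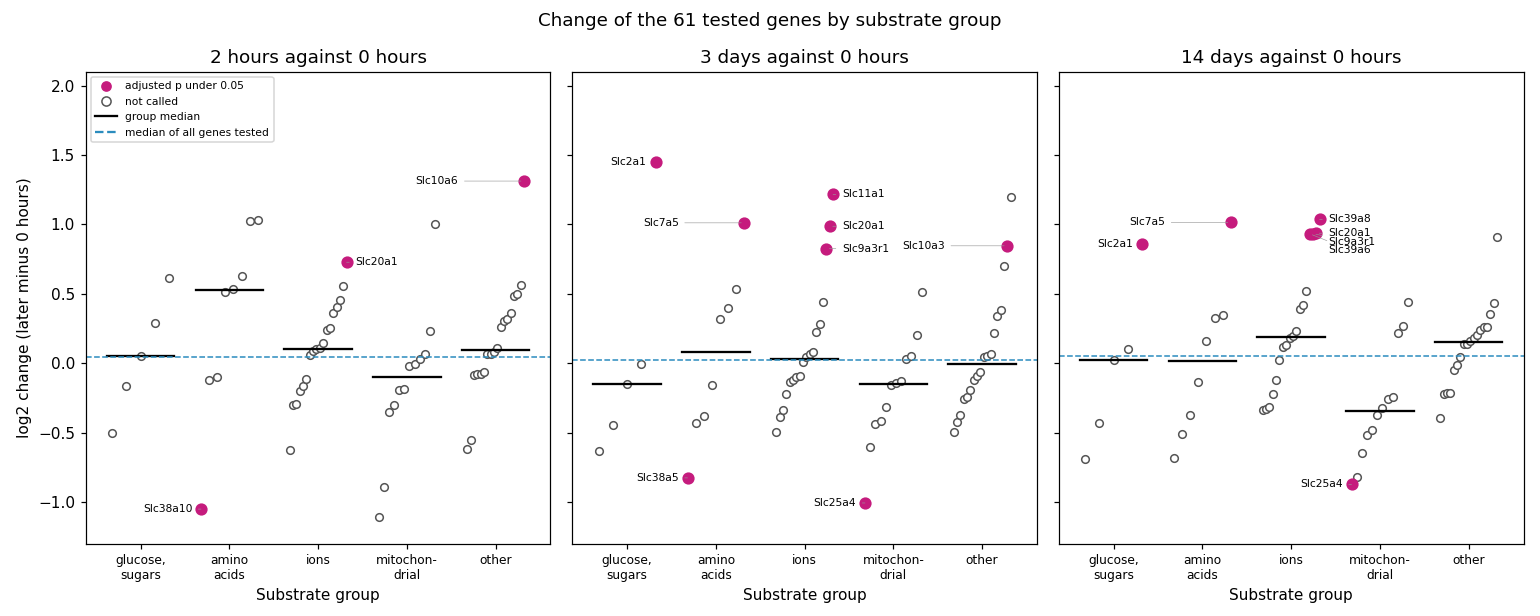
Log2 change of each of the 61 tested genes at 2 hours, 3 days and 14 days against 0 hours, by substrate group. Filled points are called at an adjusted p under 0.05, black bars are group medians and the dashed line is the median of all 3477 genes tested. Called genes lie on both sides of 0 in all 3 panels, and the mitochondrial carriers have the lowest median at 14 days, −0.35.

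Ion transporters rose wherever they were called against 0 hours. Of 18 tested, 1 rose at 2 hours, 3 at 3 days and 4 at 14 days, and none fell. The adaptor Slc9a3r1 is among those of both later times. Of the 4 at 14 days, Slc39a6 and Slc39a8 passed the filter through the 14 days arrays alone, and Slc20a1 through arrays of 3 and 14 days, so these counts are no support for the group. Of all genes tested 5.67% were called at 2 hours, 1.67% as lower. At 3 days 8.89% were called higher and 4.40% lower, and at 14 days 6.90% and 3.25%. With so few genes called lower, the lack of falls among 18 genes does not set the ion transporters apart. The median of the group was 0.11, 0.03 and 0.19. Slc20a1 (PiT-1), a sodium-coupled phosphate importer, had 236, 184.3 and 166.4 at 0 hours, 452.8, 363.7 and 330.7 at 2 hours, 478.5, 369.7 and 527.8 at 3 days, and 491.4, 473.1 and 361.8 at 14 days. No later array overlapped with 0 hours, where 2 of 3 arrays were at the floor. It rose by at least 0.73 ± 0.20 at 2 hours (limma adjusted p = 0.047), 0.99 ± 0.20 at 3 days (0.0053) and 0.94 ± 0.20 at 14 days (0.010). The changes from 2 hours to 3 days (0.26 ± 0.20) and from 3 to 14 days (−0.05 ± 0.20) were not called, with limma adjusted p of 0.45 and 0.97.

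The calls of Slc20a1 at 3 and 14 days were kept in each of the 9 leave-one-out fits in which it passed the filter, with limma adjusted p up to 0.015 and 0.044. All of these held 3 days replicates 1 and 3 and 14 days replicate 1. They cannot show how far the calls depend on those arrays. With the floor at the 40th percentile, 360.7, above all its 0 hours values, the changes were 0.11, 0.33 and 0.28 and were not called (limma adjusted p = 0.78, 0.26 and 0.36). The call at 2 hours was lost without 0 hours replicate 1 (0.077), replicate 2 (0.060) or replicate 3 (0.10), 2 hours replicate 1 (0.15), replicate 2 (0.098) or replicate 3 (0.084), 3 days replicate 2 (0.053) or 14 days replicate 2 (0.067), with no filter (0.060) and with the probe sets of highest variance (0.0505), all limma adjusted p.

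Slc11a1 (NRAMP1), an iron and manganese transporter of the phagosomes of macrophages and neutrophils, rose at 3 days. Its signal was 290.4, 348.8 and 327.3 at 0 hours, 414.4, 275.8 and 394.2 at 2 hours, 502.6, 782.7 and 1057.1 at 3 days, and 541, 430.4 and 419.9 at 14 days. The 3 days arrays lay above all of 0 and 2 hours, and 14 days lay above 0 hours. The change was 1.22 ± 0.25 at 3 days (limma adjusted p = 0.0065), a call that held without any single array. It was 0.15 ± 0.25 at 2 hours and 0.52 ± 0.25 at 14 days (limma adjusted p = 0.78 and 0.20). From 2 hours to 3 days it rose by 1.07 ± 0.25 (limma adjusted p = 0.017), and the change of −0.70 ± 0.25 from 3 to 14 days was not called (limma adjusted p = 0.22). The rise from 2 hours to 3 days was lost without 2 hours replicate 2 (0.087), 3 days replicate 2 (0.072) or replicate 3 (0.11) and with no filter (0.068). Without 3 days replicate 1 the change from 3 to 14 days was −0.98 (limma adjusted p = 0.041).

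Macrophage and monocyte markers moved with Slc11a1. Of 14 listed 13 were measured, and their summed signal ranged from 14461.3 to 17481.8 at 0 hours, 11343.7 to 22700.2 at 2 hours, 41806.7 to 63597.3 at 3 days and 23074.5 to 25038.1 at 14 days. All 12 of those tested rose at 3 days, with a median of 1.88, and 1 at 14 days. Over all genes tested 8.89% and 6.90% were called higher at these times. Fcgr3 was at the floor on all arrays after 0 hours. Of 8 neutrophil markers 4 were measured, with sums of 513.4 to 1122.1 at 0 hours and 6451.7 to 24520.8 at 3 days, and Cxcr2 was at the floor on all arrays except at 3 days. Among the 3 days arrays replicate 3 was the highest and replicate 1 the lowest for Slc11a1 and for both sums. That order was not particular to Slc11a1, since several other members had it too, among them Slc2a1, Slc7a5, Slc3a2, Slc9a3r1, Slc31a1, Slc39a7 and Slc25a5. The part of leukocytes in the level of Slc11a1 was not tested.

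**Figure D3:**
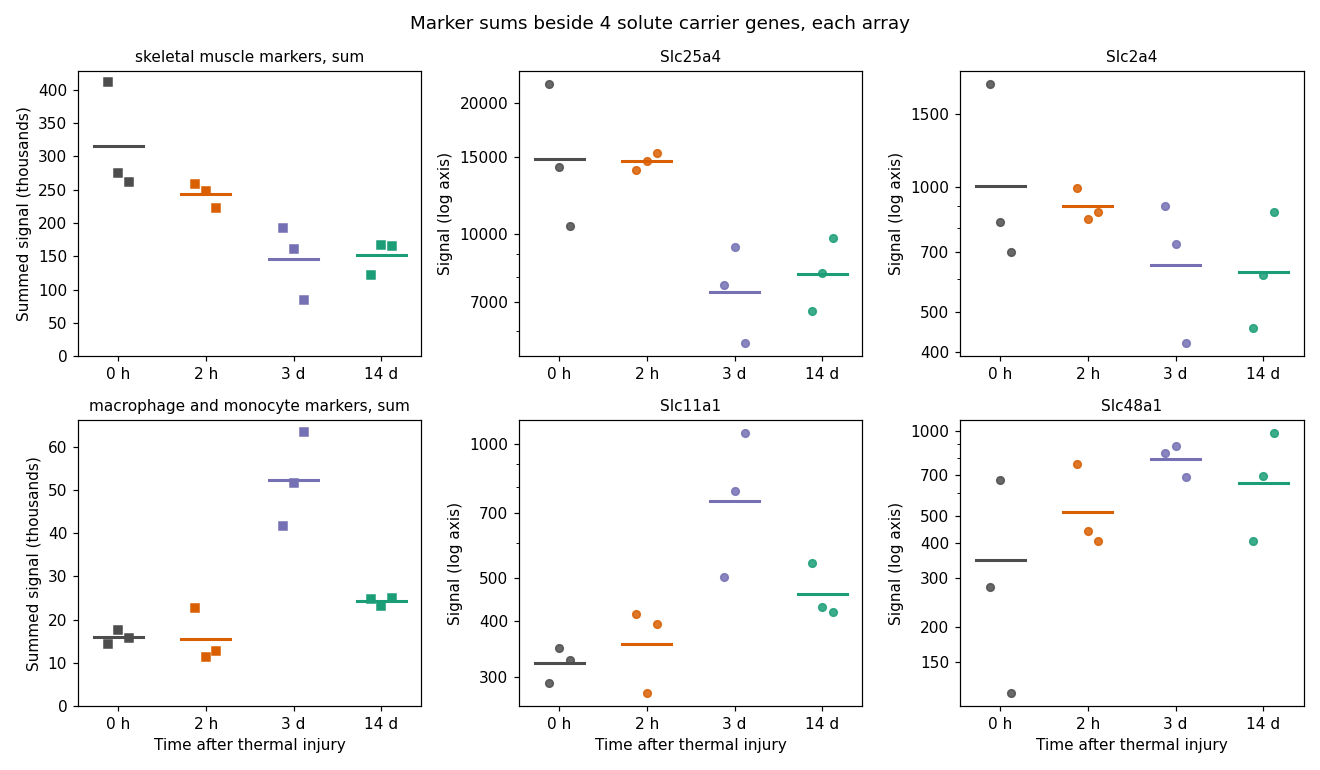
Summed signal of skeletal muscle markers and of macrophage and monocyte markers, on a linear axis from 0, beside the signal of Slc25a4, Slc2a4, Slc11a1 and Slc48a1 on log axes, for each array at the 4 time points. Points are arrays and bars are means (of floored log2 values for the genes). The muscle sum and Slc25a4 are lower at 3 and 14 days, and the macrophage sum and Slc11a1 are highest at 3 days.

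Of 5 zinc importers tested, 1 was called between the late times. This was Slc39a8 (ZIP8), which takes up zinc and manganese and is known to be raised by inflammatory signals. Its signal was 95.5, 300.2 and 163.8 at 0 hours, 410.8, 265.4 and 444.1 at 2 hours, 196.6, 151.6 and 119.6 at 3 days, and 496.1, 506.2 and 524.9 at 14 days. The 14 days arrays were the highest and nearly equal, and all 3 days arrays were at the floor. It rose by at least 1.04 ± 0.21 from 0 hours to 14 days (limma adjusted p = 0.0083) and by at least 1.18 ± 0.21 from 3 to 14 days (limma adjusted p = 0.0042), or at least 2.26-fold. The latter was the single member called between these times. The changes of 0.56 ± 0.21 at 2 hours and −0.14 ± 0.21 at 3 days against 0 hours were not called (limma adjusted p = 0.13 and 0.70). The fall from 2 hours to 3 days, by at least 0.69 ± 0.21, was barely called (limma adjusted p = 0.0498).

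The calls of Slc39a8 at 14 days against 0 hours and against 3 days were kept in each of the 9 leave-one-out fits that tested it. All of these held the 3 arrays of 14 days, so they cannot show how far the calls depend on those arrays. Against 3 days the change was 1.18 in each, since all 3 days arrays were at the floor. Without any 1 of the 14 days arrays it failed the filter and was not tested. With the floor at the 40th percentile the changes were 0.50 against both (limma adjusted p = 0.054 and 0.11). The fall from 2 hours to 3 days was lost without 2 hours replicate 1 (0.14) or replicate 3 (0.21), without 3 days replicate 1 (0.079), replicate 2 (0.14) or replicate 3 (0.16), with no filter (0.081), with the probe sets of highest variance (0.052) and with the floor at the 40th percentile (−0.16, 0.55), all limma adjusted p. Without 2 hours replicate 2 the change from 0 to 2 hours was 0.78 (limma adjusted p = 0.049).

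Slc39a6 (ZIP6), another zinc importer, had 193.8, 327.7 and 369 at 0 hours, 421.1, 433 and 317 at 2 hours, 334.9, 308.9 and 419.4 at 3 days, and 620.9, 569.3 and 537 at 14 days. The 14 days arrays lay above all others. It rose by at least 0.93 ± 0.22 at 14 days (limma adjusted p = 0.015), a call not kept when 0 hours replicate 1, the array at the floor, was left out (limma adjusted p = 0.067). Without any 1 of the 14 days arrays it was not tested. The change of 0.71 ± 0.22 from 3 to 14 days was not called (limma adjusted p = 0.11). Slc39a7 (ZIP7), which releases zinc from the endoplasmic reticulum, lay above 0 hours on all arrays of 3 and 14 days, with changes of 0.28 ± 0.22 and 0.39 ± 0.22 that were not called (limma adjusted p = 0.42 and 0.27). Slc39a1 (ZIP1) and the exporter Slc30a3 changed by at most 0.12 in size against 0 hours. The zinc exporter Slc30a1 was at the floor on all 12 arrays.

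Genes of metal handling outside the family were called against 0 hours at 2 hours and at 3 days, and not at 14 days. Of all genes tested 5.67% were called at 2 hours and 13.3% at 3 days, where 8.89% were called higher. Of 16 metal handling genes listed 7 were tested, and 3 rose at 2 hours and at 3 days while none fell. They were the zinc-binding metallothioneins Mt1 (3.13 ± 0.23 at 2 hours, 1.55 ± 0.23 at 3 days) and Mt2 (2.35 ± 0.20 and 0.98 ± 0.20), and Hmox1, which degrades haem (1.47 ± 0.22 and 1.58 ± 0.22). None was called at 14 days against 0 hours, the time at which Slc39a6 and Slc39a8 were highest. Mt1 was just outside the threshold there, at 0.75 ± 0.23 (limma adjusted p = 0.052). Hmox1 changed by 0.55 ± 0.22 and Mt2 by 0.40 ± 0.20 (limma adjusted p = 0.12 and 0.21). For these 3 the 14 days arrays lay above all of 0 hours, as for 17.4% of all genes. At that comparison 2 had an unadjusted p under 0.05 in limma.

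Slc9a3r1 (NHERF1), the scaffold that holds sodium-proton exchangers and other transporters at the apical membrane, had 553.8, 1126.1 and 969.9 at 0 hours, 1201.5, 1006.9 and 848.3 at 2 hours, 1225, 1514.4 and 1819.3 at 3 days, and 1582.6, 1473.4 and 1807.5 at 14 days. The arrays of both late times lay above 0 hours. It rose by 0.83 ± 0.26 at 3 days (limma adjusted p = 0.046) and 0.93 ± 0.26 at 14 days (limma adjusted p = 0.031). The first call was lost without any array except 0 hours replicates 2 and 3 and 3 days replicate 1, at limma adjusted p from 0.051 to 0.19, and with quantile normalization (0.0504), no filter (0.11) or only the 2 time points compared (0.12). Its largest such p, 0.19, came without 3 days replicate 3, and without 0 hours replicate 1 the change was 0.52 (0.16). The second was lost without 0 hours replicate 1 (0.12) or 14 days replicate 1 (0.093), replicate 2 (0.066) or replicate 3 (0.093), with no filter (0.090) and with only the 2 time points compared (0.070).

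The remaining tested ion transporters were not called in any comparison with all arrays. Slc4a3, an anion exchanger of muscle and nerve, changed by −0.62 ± 0.22 at 2 hours, and its relative Slc4a2, found in most cells, by −0.30 ± 0.18. Slc12a2 (NKCC1), which brings in sodium, potassium and chloride, changed by −0.49 ± 0.22 at 3 days and Slc12a4, a potassium chloride cotransporter, by −0.10 ± 0.28. From 2 hours to 3 days Slc12a2 changed by −0.60 ± 0.22 (limma adjusted p = 0.10), called without 3 days replicate 1 (−0.77, 0.046). The copper importer Slc31a1 changed by 0.44 ± 0.27 at 3 days, with −0.12 from its other probe set. The iron transporter Slc11a2 changed by 0.08 ± 0.18 and by −0.66 from its other, dimmer probe set, so that the direction is not settled. The magnesium transporter Slc41a1, the zinc transporters Slc30a4 and Slc39a9 and the Golgi sodium-proton exchanger Slc9a8 had changes between −0.38 and 0.45 against 0 hours.

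Of 9 ion members too dim for the test, the phosphate transporter Slc34a2 had its highest values at 14 days, 151.9, 266.6 and 303.1, against 35, 36.2 and 81.6 at 0 hours. Most of these lie under the floor, so no fold is given. Slc12a7, a potassium chloride cotransporter, had 302.5, 261 and 257.4 at 0 hours and 436.4, 564.6 and 619 at 3 days, without overlap and without a test. The sodium-calcium exchanger Slc8a1, Slc30a5, Slc30a9, Slc34a1, Slc39a3 and Slc4a1ap had no value above 362.6. Of 26 listed ion pumps, water channels and their regulators 13 were tested. They gave 1 rise at 2 hours, Sgk1 (1.25 ± 0.27), a kinase that keeps transporters at the membrane. At 3 days Fxyd5 rose by 1.46 ± 0.29 and Fxyd1 fell by 1.09 ± 0.27, both subunits that tune the sodium pump. At 14 days Atp6v0d1, of the proton pump, rose by 0.62 ± 0.18 and Fxyd1 fell by 0.97 ± 0.27. The share of all genes called was 5.67% at 2 hours, 13.3% at 3 days and 10.2% at 14 days.

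Of the 12 tested mitochondrial carriers 4 had a positive change at 3 days and 3 at 14 days, and the others a negative one. Slc25a4 (ANT1), the ADP/ATP exchanger of heart and skeletal muscle, was the single one called. Its signal was 22101.3, 14269.4 and 10446.9 at 0 hours, 14033.5, 14748.1 and 15351.4 at 2 hours, 7675.9, 9371.2 and 5635 at 3 days, and 6670.5, 8165.6 and 9817.1 at 14 days. All arrays of 3 and 14 days lay below all of 0 and 2 hours. It changed by −0.02 ± 0.26 at 2 hours, fell by 1.01 ± 0.26 at 3 days (limma adjusted p = 0.021) and fell by 0.87 ± 0.26 at 14 days (limma adjusted p = 0.049). From 2 hours to 3 days it fell by 0.99 ± 0.26 (limma adjusted p = 0.031). The widely expressed Slc25a5 (ANT2), with 751.5, 897.5 and 1180.3 at 0 hours and 1389.1, 984.8 and 1461.1 at 14 days, changed by 0.20 ± 0.22 at 3 days and 0.44 ± 0.22 at 14 days and was not called (limma adjusted p = 0.57 and 0.20). Its probe set is of a kind shared between similar sequences, so its identity is uncertain.

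Of 12 skeletal muscle markers tested 10 fell at 3 days (median −1.32) and 9 at 14 days (median −1.18), beside the lower sums given earlier, and none was called at 2 hours, where the median was −0.35. Among all genes tested 4.40% were called lower at 3 days and 3.25% at 14 days. None of the 12 was at the floor on all arrays of a time point. The part of muscle in the level of Slc25a4 was not tested. The fall of Slc25a4 at 3 days was lost without 0 hours replicate 1 (0.085) or 3 days replicate 3 (0.12), with no filter (0.075) and with only the 2 time points compared (0.079). The fall at 14 days was kept only without 0 hours replicate 3 or 3 days replicate 3. Without 1 other array its limma adjusted p was 0.18 (0 hours replicate 1), 0.065 (0 hours replicate 2), 0.063, 0.063 and 0.066 (2 hours replicates 1, 2 and 3), 0.056 and 0.054 (3 days replicates 1 and 2), and 0.19, 0.11 and 0.058 (14 days replicates 1, 2 and 3). It was 0.054 with the floor at the 10th percentile, 0.12 with no filter and 0.098 with only the 2 time points compared. The fall from 2 hours to 3 days was lost without 2 hours replicate 1 (0.066), replicate 2 (0.089) or replicate 3 (0.11) or 3 days replicate 3 (0.17), and with no filter (0.095).

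Slc25a1, the citrate carrier that exports citrate for fatty acid synthesis, had 4305.6, 1466.3 and 1796.1 at 0 hours, 1227.3, 852.8 and 1082.8 at 2 hours, 1375.5, 2165.9 and 1534.2 at 3 days, and 1555.1, 1749.5 and 1410.7 at 14 days. All 2 hours arrays lay below 0 hours, but the change of −1.11 ± 0.32 was not called (limma adjusted p = 0.060). Its other probe set had 2788.5, 987.5 and 2186.4 at 0 hours and 577.8, 686.7 and 490.8 at 2 hours. When the probe set of highest variance stood for the gene, this one gave −1.65 at 2 hours (limma adjusted p = 0.014) and −1.53 at 14 days (0.013). The change at 2 hours was also called with quantile normalization (−1.13, 0.047), with the filter at the 75th percentile (0.049) and without 0 hours replicate 2 (−1.42, 0.020). Slc25a10, the dicarboxylate carrier, had 1722.5, 618.1 and 440.8 at 0 hours, so that replicate 1 stood far above its group. It changed by −0.89 ± 0.42 at 2 hours (limma adjusted p = 0.23).

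Slc25a11, the oxoglutarate and malate carrier of the malate-aspartate shuttle, had 1949.6, 1280 and 1295.2 at 0 hours, 1231.2, 865.7 and 864.6 at 3 days, and 948.4, 1010.3 and 883.8 at 14 days. The late arrays lay below 0 hours, and the changes of −0.60 ± 0.21 and −0.64 ± 0.21 were just outside the threshold (limma adjusted p = 0.070 and 0.063). At 3 days it was called with quantile normalization (0.048) and without 3 days replicate 1 (−0.77, 0.032), and at 14 days with quantile normalization (0.038), the filter at the 75th percentile (0.048) and without 0 hours replicate 2 (−0.75, 0.044), all limma adjusted p. Slc25a20, which carries acylcarnitines for fatty acid oxidation, changed by −0.32 ± 0.19 at 14 days. Slc25a25, a calcium-regulated carrier of ATP-magnesium and phosphate, had 790.8, 447.4 and 261.8 at 0 hours and 810.7, 1110.9 and 833.7 at 2 hours. It was the one mitochondrial carrier above 0 hours on all 2 hours arrays, by 1.01 ± 0.33 (limma adjusted p = 0.083), and was called without 0 hours replicate 1 (1.41, limma adjusted p = 0.012). The glutathione carrier Slc25a39 had changes of −0.35, −0.13 and −0.26 and was not called, except with no filter at 2 hours and 14 days (limma adjusted p = 0.018 and 0.046).

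Over the 12 tested mitochondrial carriers the median was −0.10 at 2 hours, −0.15 at 3 days and −0.35 at 14 days, against 0.02 and 0.05 over all genes at the last 2 times. At 14 days 6 of 12 lay below 0 hours without overlap and none above, where 11.7% of all genes lay below and 17.4% above. In 9 of the 12 the highest 0 hours array was replicate 1, as it was in 26 of all 61 tested members. Among the 0 hours arrays replicate 1 had the highest sums of muscle and of adipocyte markers. The adipocyte sum was 33391.7 there, against 11266.7 and 9897.7 on 0 hours replicates 2 and 3. The part of muscle or fat cells was not tested. Slc25a15, Slc25a17, Slc25a28 and Slc25a36 had changes between −0.48 and 0.23 against 0 hours. Of these Slc25a28 was called at 14 days with no filter (−0.37, limma adjusted p = 0.041), and Slc25a15 from 2 hours to 3 days without 3 days replicate 1 (−0.68, 0.044). The untested Slc25a44 and Slc25a51 had no value above 343.9. Of 22 mitochondrial partners listed 11 were tested. Ucp3, an uncoupling protein of muscle that belongs to family 25 under another symbol, rose at 2 hours (1.27 ± 0.26, limma adjusted p = 0.011) and fell by at least 1.71 ± 0.26 from there to 3 days (limma adjusted p = 0.00086). No partner was called at 3 or 14 days against 0 hours, and the medians were −0.44 and −0.48. At an unadjusted p under 0.05 limma had 4 and 8.

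Among carriers of other solutes, family 10, named after its bile acid transporters, held both calls. Slc10a6, a sodium-dependent transporter of sulphated steroids, had 392.1, 211.1 and 360.5 at 0 hours, 647.7, 849.3 and 888 at 2 hours, 503.8, 547.2 and 497 at 3 days, and 409, 299.3 and 361.1 at 14 days. The 2 hours arrays lay above all others, and those of 3 days lay between them and 0 hours. It rose by at least 1.31 ± 0.23 at 2 hours (limma adjusted p = 0.0033), with 1 array at the floor at 0 hours, and the call held without any single array. At 3 days the change was 0.70 ± 0.23 (limma adjusted p = 0.053), called without 0 hours replicate 1 (0.041) or 0 hours replicate 3 (0.0496). At 14 days it was 0.16 ± 0.23 (limma adjusted p = 0.70).

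Slc10a3, whose substrate is not settled, had 451.3, 367.2 and 302.8 at 0 hours, 637.9, 506.4 and 440.4 at 2 hours, 713.1, 589.8 and 693.1 at 3 days, and 414.4, 437 and 421.3 at 14 days. The 3 days arrays lay above those of 0 hours and of 14 days. It rose by 0.85 ± 0.20 at 3 days (limma adjusted p = 0.013), and the call was lost without 3 days replicate 3 (0.059) and with only the 2 time points compared (0.052). The change of −0.64 ± 0.20 from 3 to 14 days was not called (limma adjusted p = 0.11). Slc48a1, which moves haem out of endosomes and lysosomes, had 278.3, 668.3 and 116.5 at 0 hours and 834.9, 884.2 and 685.7 at 3 days. The 3 days arrays lay higher, but the 0 hours arrays spread widely and the change of 1.20 ± 0.39 was not called (limma adjusted p = 0.054). It was called without 0 hours replicate 2 (1.67, limma adjusted p = 0.0084) or 14 days replicate 1 (0.041). At 14 days the change of 0.91 ± 0.39 (limma adjusted p = 0.14) was called without 0 hours replicate 2 (1.38, 0.022).

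The remaining carriers of other solutes showed no called change with all arrays. The fatty acid transport proteins Slc27a1 and Slc27a4 changed by 0.31 ± 0.30 and −0.62 ± 0.27 at 2 hours, and Slc27a4, which serves lipid uptake for the epidermal barrier, by 0.35 ± 0.27 at 14 days. Slc29a1 (ENT1), a nucleoside transporter, changed by −0.63 ± 0.21 from 2 hours to 3 days (limma adjusted p = 0.081), called without 3 days replicate 1 (−0.79, 0.036). The choline transporters Slc44a1 and Slc44a2 changed by −0.42 ± 0.29 and −0.49 ± 0.24 at 3 days and Slc44a4 by −0.06 ± 0.16. Slc44a1 was called at 3 days without 0 hours replicate 1 (−0.83, limma adjusted p = 0.037). The creatine transporter Slc6a8, the ascorbate transporter Slc23a2 and the nucleotide sugar transporters Slc35b1 and Slc35b2 changed by at most 0.26 in size against 0 hours. Slc35c2, Slc35e4, Slc23a3, Slc66a2 and Slc6a13 changed by at most 0.56.

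Of 10 members of this group too dim for the test, 5 were at the floor on all 12 arrays (Slc16a7, Slc22a21, Slc22a23, Slc33a1 and Slc35a2). Slc6a4, the serotonin transporter, had 228.7, 356.5 and 176.1 at 0 hours and 648.8, 411.4 and 653.4 at 2 hours from its brighter probe set, above the filter on only 2 arrays. Its other probe set was at the floor on 9 of 12 arrays. Slc22a17, Slc35a1, Slc35d1 and Slc35e1 had no value above 556.1. Probe sets of 1 gene could differ. The used and the other probe set changed by 0.39 and −0.02 at 3 days for Slc23a3. The other probe sets of Slc29a1, Slc30a5 and Slc35e1 were at the floor on 11, 11 and 10 of 12 arrays and give no comparison. Of 22 ABC transporters listed, which pump solutes by splitting ATP, 7 were tested. None was called at 2 hours or 14 days, with 0 and 1 at an unadjusted p under 0.05 in limma. At 3 days Abca1, a cholesterol exporter, rose by 0.99 ± 0.26 (limma adjusted p = 0.021) and Abcb4, a phospholipid exporter, fell by at least 0.96 ± 0.30 (limma adjusted p = 0.047). At that time 13.3% of all genes tested were called.

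**Figure D4:**
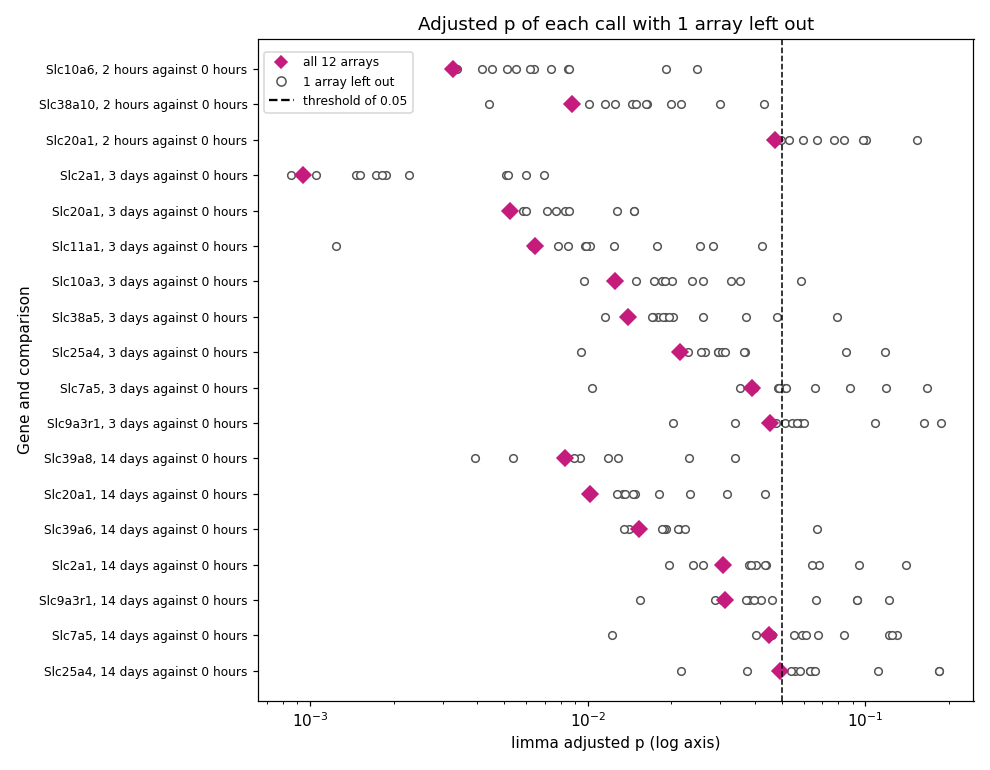
Limma adjusted p, on a log axis, of each call of a member against 0 hours, with all 12 arrays (diamonds) and with each array left out in turn (circles). The dashed line is the threshold of 0.05. The calls of Slc10a6 and Slc38a10 at 2 hours, of Slc2a1, Slc20a1 and Slc11a1 at 3 days, and of Slc39a8 and Slc20a1 at 14 days stay to its left in every fit that tested them. Slc20a1, Slc39a6 and Slc39a8 have 9 circles because they failed the filter without 1 of 3 arrays. For Slc39a6 and Slc39a8 those 3 were the 14 days arrays, and for Slc20a1 3 days replicates 1 and 3 and 14 days replicate 1. The circles cannot show how far these calls depend on those arrays.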

How the data were processed

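Mouse skin RNA was measured on 12 Affymetrix arrays, 3 at each of 4 time points. The deposited values are linear intensity values, 1 per probe set and array, as the authors' value table holds them; the software, background correction and scaling behind them are not stated in the labels or file headers. Their trimmed means differed by at most 8.39% from their average, so no scaling was added. Of 7275 probe sets 6551 had 1 gene symbol, 251 several and 446 none in the platform annotation, control probe sets aside. Values were floored at the pooled 25th percentile (225.375) and put on the log2 scale. Probe sets above 475.55 on at least 3 arrays were kept, and the one with the highest mean stood for its gene. limma 3.58.1 in R 4.3.3 (lmFit, eBayes) was fitted over all 12 arrays and 3477 genes, with 8 residual degrees of freedom, and p-values were adjusted by Benjamini-Hochberg. The fit was tested on simulated data. No 2 arrays held identical values. Alternatives were quantile normalization, median scaling, other floors and filters, another probe set rule, a replicate block, fits of only the 2 time points compared, and leaving out each array.

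Named by rule were called members whose arrays did not overlap (at most 10 rises and 10 falls a comparison), a fixed list of well-known transporters, the brightest member of each substrate group, members with 2 probe sets, and up to 4 genes of each related list with the smallest p. The members and lists were chosen with earlier results of these data known. Remaining members were named to account for all, with their details, such as those of Slc34a2, Slc12a7 and Slc48a1, picked after their values were seen. Sequences are from RefSeq's promoter table (GRCm38.p6), cut to 250 bases before the start, for 70 of the 86 genes.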

Additional observations from a re-analysis of the deposited data

How the results depend on the processing

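No called change of a single gene turned its direction under any of the alternatives in which it was tested. The number of solute carriers called was 12 over the 4 time points and 4 with the filter at the 75th percentile. At 3 days against 0 hours it was 8, and 3 with that filter or with only the 2 time points compared. At 14 days against 0 hours it was 7, then 4 with the floor at the 40th percentile or that filter, and 2 with only the 2 time points compared. From 2 hours to 3 days it was 5, then 0 with no filter (limma, 22 with an unadjusted p under 0.05) and 2 with the filter at the 75th percentile. From 3 to 14 days it was 1, and 0 with the floor at the 40th percentile or that filter (limma, 8 and 0 with an unadjusted p under 0.05). Leaving out each array in turn gave 7 to 15 over the 4 time points, 2 to 5 at 2 hours, 2 to 10 at 3 days and 0 to 9 at 14 days, against 0 hours. It gave 0 to 7 from 2 hours to 3 days and 0 to 2 from 3 to 14 days, where Slc39a8 was not tested without any 1 of the 14 days arrays. The causes were not tested, beyond the smaller number of arrays or genes in each fit. The shares of all genes called in these fits are not given here, so the counts show nothing particular to solute carriers. Replicate numbers did not pair the arrays, since 2 of 18 same-number pairs had deviations correlated above 0.1 and the median correlation was −0.066. With the replicate block the counts were 10 over the 4 time points, 2, 6 and 4 against 0 hours, 3 from 2 hours to 3 days and 1 from 3 to 14 days. The lists of lost calls by gene leave the block out. It lost Slc20a1 at 2 hours, Slc7a5 and Slc9a3r1 at 3 days, and Slc2a1, Slc7a5 and Slc25a4 at 14 days. From 2 hours to 3 days it lost Slc2a1 and Slc39a8. Signals near the floor limit what can be said of the dimmest members.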
